A study of Mus musculus with 6 samples.

Results

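Fibroblast growth factor (FGF) signalling was followed through 38 genes chosen by name in the caudal tissue of mouse embryos collected on embryonic day 9.5: 22 ligands, 5 receptors, 6 feedback inhibitors, 3 ETS transcription factors and 2 adaptors. Of the 18563 genes named on the arrays, 36 were among the 38, carried by 44 probes. The probe for Fgfr2 was annotated to more than 1 gene and was not used here, and no probe was annotated to Frs2. The study compared 3 wild-type (WT) samples with 3 Splotch null samples, all of the strain labelled LMBc, each hybridised to a one-colour CodeLink array. Splotch is a mutation of Pax3, a transcription factor of the dorsal neural tube, dermomyotome and neural crest, and the labels did not name the allele. The labels named no transgene or Cre. Tissue was cut below the forelimb pit. Whether tissue was pooled over embryos, and whether litters were shared, was not given. P-values therefore measure only the spread between these samples, which may be partly technical.

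FGF ligands are secreted proteins that bind receptor tyrosine kinases at the cell surface together with heparan sulfate. The receptors act through FRS adaptors on the Ras and ERK kinases, and ERK activity switches on ETS factors such as Etv4 and Etv5 and the inhibitors of the Sprouty, Spred and Dusp families, which damp the signal. In the caudal embryo Fgf8 and related ligands are made in the tail bud and presomitic mesoderm, where they keep progenitors undifferentiated and help set the position of new somite boundaries.

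No FGF gene passed the test for a difference between the genotypes. Of the 36 genes with a probe, 28 could be tested, being above background on 3 or more arrays, and 25 of these were so on all 6. Of these 28, 16 were brighter and 12 dimmer in Splotch null, beside 55.0% brighter among the 14315 genes tested. By limma, 0 of the 28 passed 0.05 after Benjamini-Hochberg adjustment and 0 passed it before adjustment. Over all genes these shares were 0% and 1.43%, the latter made of 0.999% brighter and 0.426% dimmer in Splotch null. The median log2 difference, Splotch null minus wild type, was 0.027 over the 28 and 0.017 over all genes. All adjusted p-values of the 28, taken over every probe tested, rounded to 1.

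The data bounded the differences more tightly for some members than for others. By the brightest probe of each gene, the 95% confidence interval of the difference held 0 for all 28. It lay inside a 2-fold change in either direction for 27, with Fgf15 the exception. The dimmer Fgf3 probe, not counted here, had a wider interval of -1.68 to 0.71. For 15 of the 28 it lay inside 1.5-fold. No member reached a 1.5-fold difference, which 0.594% of all genes did. For 13 members the log2 difference was under 0.1 in size. Levels below are log2 of the background-subtracted intensity plus 50 after quantile normalization, so differences of dim genes are understated. They are comparable between arrays for 1 gene but not between genes.

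**Figure D1:**
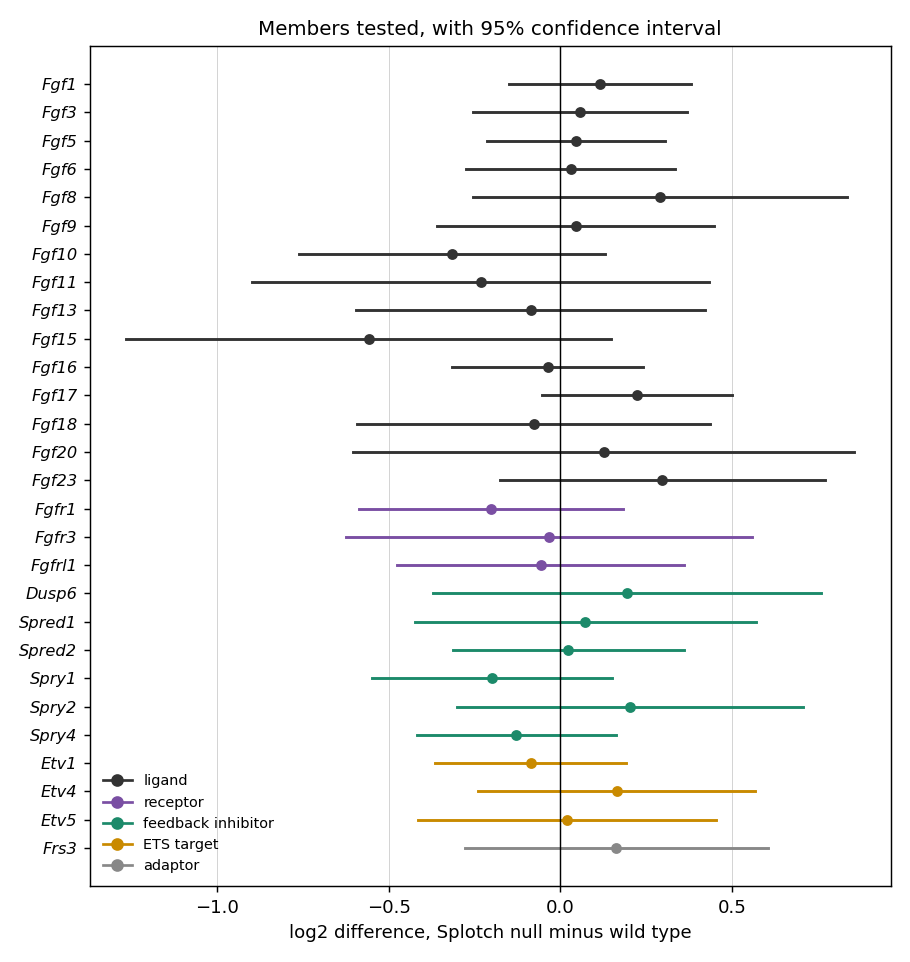
Log2 difference, Splotch null minus wild type, for the 28 FGF genes tested (points) with 95% confidence intervals from limma (lines), coloured by class. Each gene is shown by its brightest probe. Every interval crosses 0, and that of Fgf15 is the only one to reach beyond -1.

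Pax3, the mutated gene, was measured by 2 probes, and Pax3 RNA did not separate the genotypes, with differences of 0.17 (SE 0.21) and -0.091 (SE 0.20), so the probes do not check the genotype labels. The arrays differed in ways that bear on single members. Median raw intensity ran from 84.3 to 121.1 and was highest on wild type 1 among wild types and on Splotch null 3 among nulls. Splotch null 2 stood apart in yolk sac and visceral endoderm markers, whose mean log2 level over 8 measured genes was 12.11 there and between 7.48 and 9.04 elsewhere. The mean of 7 neural tube markers was lowest on Splotch null 2, at 8.455, and highest on Splotch null 3, at 10.03, while the other 4 arrays lay from 9.17 to 9.755. One label field called the tissue anterior neural tube and another posterior neural tube. All 14 tail bud markers on the array passed the filter on low values, beside 14315 of the 18563 genes named on the arrays. So did 5 of 8 forebrain and midbrain markers, Lhx2, Emx2, Six3, En1 and En2, while Otx2 and Emx1 were among the 3 that did not. Which cells gave these signals was not tested.

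Ligands of the tail bud came first. Fgf8, the main FGF of the tail bud and presomitic mesoderm, read 10.20, 10.81 and 10.84 on wild type 1, 2 and 3 and 11.24, 10.87 and 10.61 on Splotch null 1, 2 and 3. The genotypes overlapped, with the lowest value on wild type 1 and the highest on Splotch null 1. Wild type averaged 10.62 ± 0.36 (SD, n = 3) and Splotch null 10.91 ± 0.31 (SD, n = 3), which differ by 0.29 (SE 0.23, 95% confidence interval -0.25 to 0.84). Without wild type 1 the difference was 0.082, and without Splotch null 3 it was 0.45.

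Fgf17, a close relative of Fgf8, was 1 of 2 members whose genotypes did not overlap. It read 7.12, 7.31 and 7.16 in wild type and 7.49, 7.36 and 7.41 in Splotch null, in the order of replicates 1 to 3. Every null array lay above every wild-type array, by 0.048 at the nearest pair. The difference was 0.22 (SE 0.12, 95% confidence interval -0.052 to 0.50), or 1.17-fold. An exact permutation test gives every gene without overlap a two-sided p of 0.1, the smallest that 3 against 3 allows. For Fgf17 that p therefore only restates the lack of overlap. Among the genes measured on all 6 arrays 5.11% did not overlap, with the nulls brighter in 3.22% and dimmer in 1.89% of genes, and among members so measured it was 2 of 27. The tail bud and presomitic marker list had 9 of 14 genes brighter in Splotch null, a median difference of 0.18 and 0 genes past the adjusted threshold. Its mean level over 13 genes lay between 9.909 and 9.994 in wild type and between 9.939 and 10.15 in Splotch null. Its part in the values of Fgf8 and Fgf17 was not tested. In tissue RNA, fewer cells of a type and less RNA per cell cannot be told apart.

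The other member without overlap was Fgf1, the acidic FGF, a ligand of all FGF receptors. It read 6.48, 6.49 and 6.39 in wild type and 6.56, 6.65 and 6.50 in Splotch null. Its nearest pair of arrays differed by 0.01 and its spot was not above background on wild type 3. The difference of 0.12 (SE 0.11) was about the size of its standard error.

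Fgf3, a ligand needed for tail and inner ear development, was measured by 2 probes that disagreed on 1 array. The brighter probe read 8.66, 8.93 and 9.02 in wild type and 8.96, 8.93 and 8.89 in Splotch null, a difference of 0.058 (SE 0.13). The other probe read 7.62, 7.57 and 7.84 in wild type and 5.87, 7.96 and 7.74 in Splotch null. Its spot on Splotch null 1 had a raw intensity of 7.83 and was near background, while the other 5 lay between 141.3 and 204.2. The probe's difference was -0.48 (SE 0.51) with that spot included, and the brighter probe was not low on that array. Fgf4, which acts with Fgf8 in the presomitic mesoderm, was not above background on any array, so no fold is given.

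**Figure D2:**
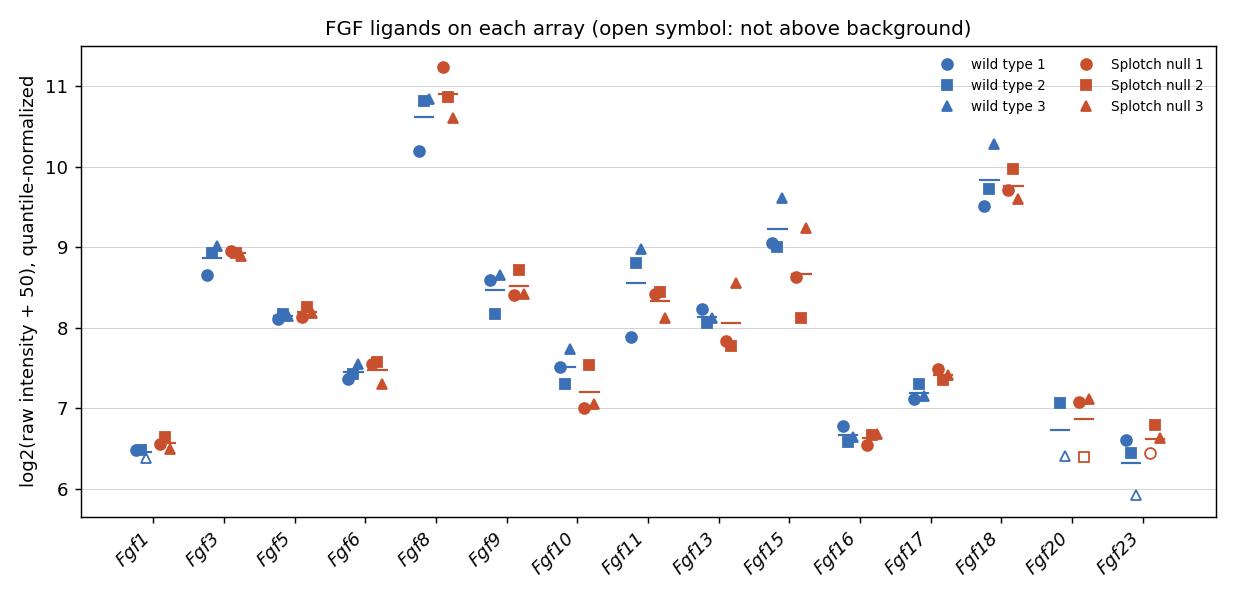
Log2 intensity of the 15 FGF ligands tested on each array, wild type in blue and Splotch null in red, with bars at the group means and open symbols for spots not above background. Points of both colours intermix for 12 of the 14 ligands with a value on every array, the exceptions being Fgf1 and Fgf17.

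Fgf15, a ligand of neural progenitors that acts as a hormone in the adult gut, showed the largest difference of the 28. Its level was 9.05, 9.01 and 9.62 in wild type and 8.63, 8.12 and 9.24 in Splotch null. The 2 lowest arrays were nulls, but Splotch null 3 lay above wild type 1 and 2. The means of 9.22 ± 0.34 (SD, n = 3) and 8.67 ± 0.56 (SD, n = 3) differed by -0.56 (SE 0.30, 95% confidence interval -1.26 to 0.15), 1.47-fold dimmer in Splotch null. Limma gave an unadjusted p of 0.104 and an adjusted p that rounded to 1. The size hung on single arrays: it was -0.285 with Splotch null 2 left out, -0.36 with wild type 3 left out, -0.85 with Splotch null 3 left out and -0.946 with wild type 1 and Splotch null 3 both left out. The lowest Fgf15 value and the lowest mean of the neural tube markers fell on the same array, Splotch null 2. That list had 4 of 7 genes dimmer in Splotch null, a median of -0.054, and its part in the Fgf15 difference was not tested.

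Fgf18, a ligand known for its roles in skeletal and lung development, read 9.51, 9.72 and 10.29 in wild type and 9.71, 9.98 and 9.60 in Splotch null. The highest value was on wild type 3 and the groups overlapped, with a difference of -0.077 (SE 0.22). Fgf10, the mesenchymal ligand of limb and lung buds, read 7.51, 7.30 and 7.74 in wild type and 7.01, 7.54 and 7.05 in Splotch null. Splotch null 1 and 3 lay below all wild types and Splotch null 2 lay within them, so the difference of -0.32 (SE 0.19) did not pass. Fgf10 is known as a gene of lateral plate and limb mesenchyme, but the cells that expressed it in this tissue were not identified. The mean of 5 lateral plate markers was 8.592, 8.824 and 8.067 on Splotch null 1, 2 and 3 against 8.354 to 8.58 in wild type. The part of that list in the Fgf10 values was not tested.

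Some FGF family members stay inside the cell, where they bind sodium channels. Of these, Fgf11 and Fgf13 were tested. Fgf11 read 7.89, 8.81 and 8.99 in wild type and 8.42, 8.44 and 8.13 in Splotch null, so that wild type 1 alone was below the nulls. Its difference was -0.23 (SE 0.28). Fgf13 was highest on Splotch null 3 at 8.55 and lowest on Splotch null 2 at 7.78, with the wild types between 8.06 and 8.24. The intracellular Fgf12 and Fgf14 did not pass the filter on low values.

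Among the remaining ligands tested, Fgf5, Fgf6, Fgf9 and Fgf16 differed by between -0.037 and 0.047, all above background on all 6 arrays. Fgf5 was the steadiest member, with 0.15 between its lowest and highest array, against 1.49 for Fgf15. The inner ear and kidney ligand Fgf20 had a value on 5 arrays, with the spot on wild type 1 left out for its quality flag, and differed by 0.13 (SE 0.30). Fgf23, the hormone that controls phosphate, was above background on 4 arrays and differed by 0.30 (SE 0.20). Over the 15 ligands tested, 9 were brighter in Splotch null and the median difference was 0.045. The ligands that did not pass the filter were Fgf2, Fgf4, Fgf7, Fgf12, Fgf14, Fgf21 and Fgf22. Their probes and that of Fgfr4 gave log2 levels between 5.64 and 6.54.

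Of the 4 receptors with a usable probe, Fgfr1, Fgfr3 and Fgfrl1 were above background on all 6 arrays and Fgfr4 was not. Fgfr1, the main receptor of early mesoderm and the tail bud, read 9.47, 9.04 and 9.43 in wild type and 9.18, 8.92 and 9.24 in Splotch null. The groups overlapped and the difference was -0.20 (SE 0.16, 95% confidence interval -0.59 to 0.18), but 0.0061 when the arrays were weighted by their estimated quality. Fgfr3, a receptor of neural progenitors and cartilage, read 8.56, 7.91 and 8.43 in wild type and 8.24, 7.88 and 8.69 in Splotch null. Its highest and lowest arrays were both nulls, Splotch null 3 and 2, and these were also the highest and lowest arrays for the mean of the neural tube markers, whose part was not tested. The match was not particular to Fgfr3, as Fgf13, Dusp6 and Etv5 had the same highest and lowest arrays. The difference of Fgfr3 was -0.033 (SE 0.25), and it was 0.16 without Splotch null 2 and -0.243 without Splotch null 3.

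Fgfrl1, a receptor-like protein that lacks the kinase domain, read 8.65, 8.39 and 8.90 in wild type and 8.75, 8.35 and 8.68 in Splotch null. The difference of -0.057 (SE 0.18) was small beside the range of 0.55 over the arrays. All 3 receptors tested lay lower in Splotch null by the mean, with a median of -0.057 that turned to 0.156 with weighted arrays, to 0.063 without Splotch null 2 and to 0.033 without wild type 3. The SD between replicates of the median centred level of the 3 receptors was 0.23. All 3 also read lowest on Splotch null 2 and second lowest on wild type 2, 1 array of each genotype.

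Feedback inhibitors report on ERK activity because the signal they damp also induces them. Dusp6, the phosphatase that inactivates ERK in the cytoplasm, read 10.999, 10.97 and 10.78 in wild type and 10.99, 10.69 and 11.65 in Splotch null. Splotch null 3 stood above the other 5, among which the genotypes overlapped. The means of 10.92 ± 0.12 (SD, n = 3) and 11.11 ± 0.49 (SD, n = 3) differed by 0.19 (SE 0.24), and by -0.075 without Splotch null 3. Spred1, an inhibitor of Ras activation, was also highest on Splotch null 3, at 8.75, with the other 5 arrays between 8.01 and 8.39. Its difference was 0.073 (SE 0.21).

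None of the Sprouty genes read highest of all arrays on Splotch null 3. Among the nulls alone, Spry1 and the brighter probe of Spry4 were highest there, and Spry2 was not. Spry1 read 12.36, 12.12 and 12.01 in wild type and 11.80, 11.96 and 12.13 in Splotch null. The 2 lowest arrays were nulls and the difference was -0.20 (SE 0.15, 95% confidence interval -0.55 to 0.15). Spry2 read 8.28, 9.02 and 8.85 in wild type and 8.95, 9.10 and 8.70 in Splotch null. Wild type 1 lay below the other 5, and the difference of 0.20 (SE 0.21) became -0.014 without it. Spry4 read 7.74, 7.53 and 7.63 in wild type and 7.44, 7.45 and 7.63 in Splotch null by its brighter probe, a difference of -0.13 (SE 0.12), and -0.012 (SE 0.12) by its other probe. Spred2, a relative of Spred1, differed by 0.023 (SE 0.14).

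Promoters are shown for Dusp6 and Spred1, the inhibitors that read highest on Splotch null 3, and for Spry1, which did not. They were picked by these array values. The windows of Spry2, Spry4 and Spred2, which also did not read highest there, are not shown. The windows shown therefore make no comparison between such groups of genes. Each window is 300 bases of GRCm38.p6 from RefSeq, 5′ to 3′ along the gene, ending 50 bases past its start. Capitals mark GGAAG, which extends the shorter GGAA core bound by ETS factors, or its reverse complement CTTCC. GGAA followed by another base is not marked.
Dusp6: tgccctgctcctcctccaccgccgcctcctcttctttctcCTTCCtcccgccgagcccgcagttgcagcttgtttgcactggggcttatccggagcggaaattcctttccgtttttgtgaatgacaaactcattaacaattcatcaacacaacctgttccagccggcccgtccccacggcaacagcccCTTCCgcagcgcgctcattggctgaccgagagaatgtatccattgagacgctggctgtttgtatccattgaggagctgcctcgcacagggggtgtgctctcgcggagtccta
Spred1: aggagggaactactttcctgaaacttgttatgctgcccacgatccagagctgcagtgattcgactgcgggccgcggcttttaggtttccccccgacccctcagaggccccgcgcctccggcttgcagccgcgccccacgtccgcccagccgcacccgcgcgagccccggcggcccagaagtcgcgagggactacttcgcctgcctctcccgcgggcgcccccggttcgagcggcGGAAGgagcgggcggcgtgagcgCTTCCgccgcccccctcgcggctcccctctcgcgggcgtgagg
Spry1: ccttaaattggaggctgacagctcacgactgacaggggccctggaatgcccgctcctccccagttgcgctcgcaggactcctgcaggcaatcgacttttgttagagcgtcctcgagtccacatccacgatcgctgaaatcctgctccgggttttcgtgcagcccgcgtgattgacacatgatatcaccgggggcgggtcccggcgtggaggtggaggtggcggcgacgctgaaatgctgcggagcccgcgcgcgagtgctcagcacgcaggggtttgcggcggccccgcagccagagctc

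The Dusp6 window lies on the plus strand at chr10:99262981-99263280, that of Spred1 on the plus strand at chr2:117120821-117121120 and that of Spry1 on the plus strand at chr3:37639697-37639996. GGAAG, searched on both strands, occurred 2 times in the Dusp6 and 2 times in the Spred1 window and was not found in that of Spry1. The shorter GGAA was not counted, and it does occur in the Spry1 window. GGAAG occurred in 71.4% of all 32851 promoter windows of this length and in 24 of 36 windows of members, so its presence is common. Whether GGAAG goes with a member's values on any array was not tested. The longer CCGGAAG, which contains GGAAG, was in 8.86% of all windows and in 1 of 36 windows of members, the 27 member genes that RefSeq promoters covered. A match of letters is a description of the window and not a binding site.

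**Figure D3:**
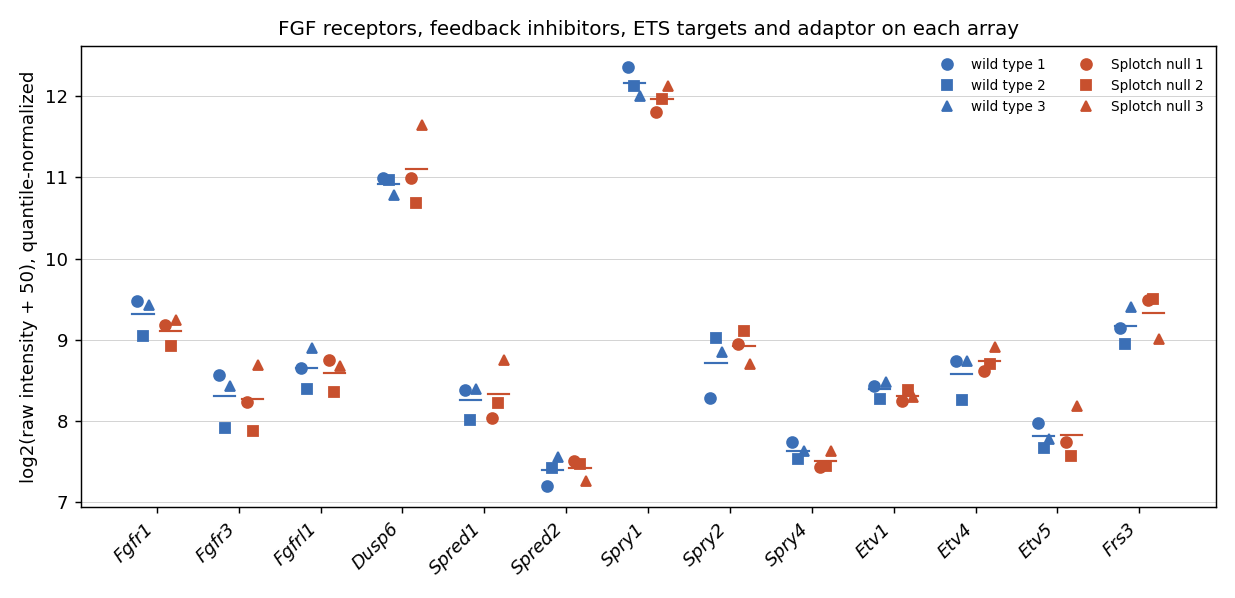
Log2 intensity of the 3 receptors, 6 feedback inhibitors, 3 ETS targets and 1 adaptor tested on each array, wild type in blue and Splotch null in red, with bars at the group means. Genotypes overlap for all 13, and the red triangle of Splotch null 3 is the highest point for Dusp6, Spred1, Fgfr3, Etv4 and Etv5.

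ETS targets overlapped between the genotypes. Etv4, an ETS factor induced by FGF in the tail bud and limb, read 8.74, 8.26 and 8.74 in wild type and 8.62, 8.70 and 8.91 in Splotch null. Wild type 2 was the low array, and the difference was 0.16 (SE 0.17), or 0.0051 without wild type 2. Etv5, its close relative, read 7.98, 7.67 and 7.78 in wild type and 7.74, 7.56 and 8.18 in Splotch null. Both the highest and the lowest Etv5 value were nulls, and the difference was 0.019 (SE 0.18). Etv1 differed by -0.086 (SE 0.12) and varied by 0.23 over the arrays.

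Feedback inhibitors and ETS targets together had 6 of 9 genes brighter in Splotch null and a median difference of 0.023. The median was 0.11 without Splotch null 2 and -0.079 without Splotch null 3, so its sign depended on which array was left out. Frs3, an adaptor that links receptors to the Ras pathway, was measured by 2 probes. The brighter one read 9.14, 8.95 and 9.41 in wild type and 9.49, 9.50 and 9.01 in Splotch null, with the third null below 2 of the wild types. Differences were 0.16 (SE 0.19) and 0.14 (SE 0.16) for the 2 probes.

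The extremes of the FGF genes fell on arrays of both genotypes. Over the 27 members measured on all 6 arrays the highest value fell on wild type 3 for 8, on Splotch null 2 for 7, on Splotch null 3 for 6 and on wild type 1 for 4. Of all genes, these arrays held the highest value in 15.2%, 23.3%, 24.4% and 16.9%, in the same order. The lowest value fell on wild type 1 for 8 members, on Splotch null 2 for 7 and on Splotch null 3 for 1, beside 19.2%, 17.7% and 23.5% of all genes. The median range between the lowest and highest array was 0.56 for the members and 0.52 for all genes.

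**Figure D4:**
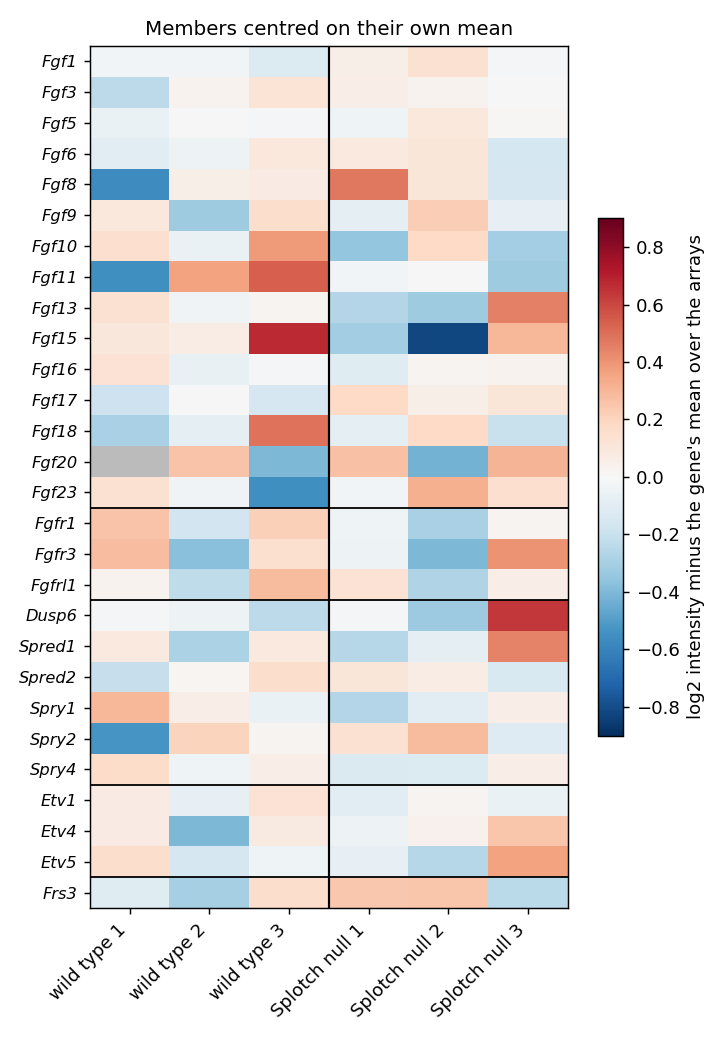
Log2 intensity of each tested member on each array, minus that gene's mean over the arrays, with classes separated by horizontal lines and genotypes by the vertical line. Red is above and blue below the gene's mean and grey is a spot left out. The darkest cells are single arrays, Fgf15 on Splotch null 2 and on wild type 3 and Dusp6 on Splotch null 3.

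Other genes of the pathway, in 3 lists, likewise held 0 genes past an adjusted or an unadjusted p of 0.05 with limma. Of 17 co-receptors and surface modulators tested, 8 were brighter in Splotch null and the median was -0.011. Gpc1, a heparan sulfate proteoglycan, differed by -0.31 (SE 0.16) with no overlap between genotypes, and the receptor-binding membrane protein Flrt2 by -0.28 (SE 0.17). Ext2, an enzyme that builds heparan sulfate chains, also did not overlap but differed by 0.078 (SE 0.11). Klb, the co-receptor of hormone-like FGFs, differed by 0.24 (SE 0.29) and was highest on Splotch null 2, at 7.85, against 6.75 to 7.15 elsewhere. Il17rd, the FGF antagonist known as Sef, differed by 0.079 (SE 0.12).

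Of 16 genes of the Ras and MAP kinase relay, 6 were brighter and 10 dimmer in Splotch null, with a median of -0.035. The GTPase gene Nras differed by -0.23 (SE 0.13), and the ERK gene Mapk3 by 0.29 (SE 0.20). Among 15 further targets or inhibitors of ERK, 9 were brighter and the median was 0.0058. Their smallest p-values belonged to Myc at -0.21 (SE 0.14), Dusp14 at -0.16 (SE 0.14) and Errfi1 at -0.14 (SE 0.16). The immediate early genes Fos and Egr1 did not pass the filter on low values.

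**Figure D5:**
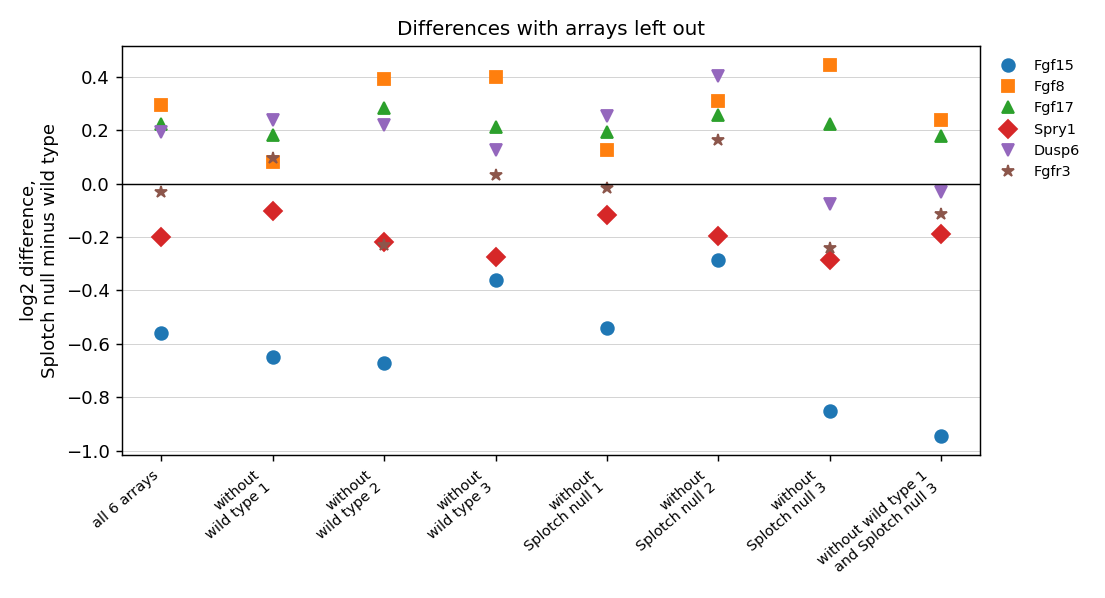
Log2 difference, Splotch null minus wild type, for 6 members with all arrays and with arrays left out. Fgf15 stays below 0 and Fgf8 and Fgf17 above 0 throughout, between -0.946 and -0.285 for Fgf15, while Dusp6 and Fgfr3 lie on either side of 0.

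Leaving out arrays kept the sign of Fgf15, Fgf8, Fgf17, Fgf1, Fgfr1, Spry1, Spry4 and Etv4 and changed that of Dusp6, Etv5, Fgf18, Fgf3, Fgfr3, Fgfrl1 and Spry2 among the named members. Fgfr1 kept its sign here but not with weighted arrays. No member passed the adjusted threshold with any array left out.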

How the data were processed

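RNA of the caudal tissue was turned into biotin-labelled cRNA by amplification, per the labels' protocols, and the 6 arrays were read with CodeLink Expression Analysis 5.0.0.31312, per the file headers. The deposited reports gave each spot's raw intensity and that intensity after the authors' global median normalization. The raw intensity reached -16.6, so a background had been subtracted by a method not given in the sources used here. The authors' deposited value table held the normalized intensity times 1 constant per array, with negative spots at 0. No batch was recorded beyond 1 analysis session.

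Spots with the flag for good (G), near-background (L) or saturated (S) signal were used, and 277 to 422 others per array were left out. Raw intensity was floored at 0.0119. After adding 50, log2 values were quantile-normalized between arrays. Probes flagged G or S on at least 3 arrays, with at least 2 values per genotype, numbered 24434, and these entered lmFit and eBayes of limma 3.58.1 under R 4.3.3. P-values were adjusted over all of them by Benjamini-Hochberg. The brightest probe stood for a gene. Above background, arrays held 66.1% to 71.7% of 34967 probes, and the number of arrays limits the precision. Symbols came from GEO's platform annotation, updated by gene identifier to GRCm38.p6, with 681 probes of several genes and 12135 of none left unnamed. No build was given for the arrays.

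Groups came from the genotype field, and replicates were numbered in accession order, which pairs nothing. Members and gene lists were chosen with earlier results of these data known. Values on all arrays were given for members with an unadjusted p under 0.05, without overlap or at least 1.5-fold different, and for a set list of members. Fgf10, Fgf11, Fgf13, Fgf20, Fgf23, Spred1, Frs3 and the array extremes were added after their values were seen. In other lists, genes with the smallest p were named, apart from a result not reported here, and Ext2 and Il17rd were added. The fit was also run on simulated data with noise drawn independently for each probe. Such data lack differences that an array shares over many genes, so that run does not check the fit against them. Alternatives concerned the values used (the authors' normalized intensity or value table), the scaling (median, cyclic loess), offsets of 10 and 200, the filter (none, or all 6 arrays), flags, the fit (trended robust eBayes, weighted arrays, array median as covariate), averaging of a gene's probes, and arrays left out. Figures used matplotlib 3.10.9.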

Additional observations from a re-analysis of the deposited data

How the results depend on the processing

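Under all 20 alternatives 0 members passed an adjusted p of 0.05 with limma. The count at an unadjusted p under 0.05 was 0 as reported, 1 with no filter (Fgf12, near background on all arrays), 6 with array weights (Fgf8, Fgf10, Fgf15, Fgf17, Frs3 and Spry1, with weights from 0.257 on Splotch null 3 to 7.33 on Splotch null 1), 2 without the brightest array of each genotype (Fgf11 and Fgf15) and 0 to 2 with 1 array left out. Of all genes, 1.81%, 19.6%, 3.14% and 0.815% to 3.9% passed in these settings, so that 6 of 28 members stood beside 19.6%. Members without overlap numbered 2 as reported, 1 with the filter on all 6 arrays, 10 without the brightest array of each genotype and 2 to 8 with 1 array left out, beside 5.11%, 4.89%, 33.9% and 9.48% to 25.5% of all genes. Fewer arrays overlap less by construction. Fgf17 was among them in every setting run. So was Fgf1, except with the filter on all 6 arrays, which it did not pass. A change of the fit, or fewer arrays, could hardly have made genotypes overlap that did not before. Without the brightest arrays 10 members were brighter in Splotch null in place of 16. The median difference was then -0.0308 over all members and -0.0618 over feedback and ETS targets, beside 0.0211 over all genes. With 1 array left out, the median lay between -0.0511 and 0.0835 over all members, beside -0.00115 to 0.0404 over all genes. It lay between -0.0303 and 0.0839 for ligands, between -0.243 and 0.0628 for receptors and between -0.079 and 0.11 for feedback and ETS targets. The cause was not tested. Over all settings Fgf15 lay between -0.946 and -0.285, with an unadjusted p under 0.05 in 3 of them, Fgf8 between 0.0823 and 0.445 and Fgf17 between 0.115 and 0.301. No paired analysis was possible because the labels give no replicate numbers shared between genotypes. Dim probes set the limit of the rest: 8 members could not be tested, 4 of them above background on no array.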
